A study of Danio rerio with 20 samples.

Results

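The genes described here are 8 transcription factor genes of the subpallium, dlx1a, dlx2a, dlx2b, dlx5a, dlx6a, lhx8a, sp8a and nkx2.1, taken by gene name from the 18820 genes of the deposited count table, and they were read beside gad2. Neurons of the Dc region, the central zone of the zebrafish dorsal pallium, were collected one by one with a glass pipette after treatment with CAS (conspecific alarm substance). There were 10 libraries of synchronized neurons, whose calcium activity joined the shared oscillation, and 10 of non-synchronized neurons, whose activity did not. All fish were Tg(HuC:H2B-GCaMP6f), a line with a calcium indicator in the nuclei of neurons, were 4 to 5 weeks old and had received CAS, so an untreated group was not analysed here. Each library was taken as 1 cell and is called by the number in its label. What the number stands for is not given, and it was not used to pair cells between the groups. The fish behind each cell is not named. Each group was therefore taken as 1 sample, no test was computed, an SD is a spread between cells, and intervals cover counting error only.

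Dlx genes code for homeodomain transcription factors of the subpallium, the ventral telencephalon, where most GABAergic neurons of the forebrain are born, and in mice they act upstream of the genes for GABA synthesis. In mice, Dlx1 and Dlx2 act in progenitors and young neurons of the ganglionic eminences, while Dlx5 and Dlx6 act later in the same lineage. Nkx2-1 patterns the medial ganglionic eminence, Lhx8 acts downstream of it in cholinergic and other ventral neurons, and Sp8 marks neurons of the lateral and caudal eminences. Excitatory neurons of the pallium come from a different, dorsal lineage, and interneurons born in the subpallium migrate into the pallium.

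Total counts were 795838 to 2493351 in the synchronized and 1131532 to 3144155 in the non-synchronized libraries. Levels are given in CPM (counts scaled to the library's total), which are not divided by gene length, so a level is compared between cells and not between genes. Every cell held elavl3, a neuronal RNA-binding protein gene, at 229 CPM or more, and foxg1a, a transcription factor gene of the telencephalon, was detected in all 20 cells. RNA of other cell types was present. The listed microglia and leukocyte genes summed to 0 to 250.3 CPM in the synchronized and 0 to 3172 CPM in the non-synchronized cells, and the red blood cell genes to 0 to 11268 CPM and 0 to 14956 CPM. Either sum passed 1000 CPM in 6 libraries, which were synchronized 4-1 and 5 and non-synchronized 5, 6, 13 and 22. The part of this RNA in the results below was not tested, and results without these libraries are given where they bear on a gene.

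The 8 genes were counted in few cells, and mostly in the same ones. Non-synchronized cell 22 held all 8 of them at 5 or more counts. Synchronized cell 4-1 and non-synchronized cells 6 and 18 held 6 each, non-synchronized cells 5 and 13 held 4 at this level and 1 more at a single count, and synchronized cell 20 held 3 and a single count of another. Non-synchronized cell 10 held dlx2b alone. The other 12 cells held no member at 5 or more counts, and single counts were found in synchronized cells 4 and 5 and non-synchronized cell 19-1.

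**Figure D1:**
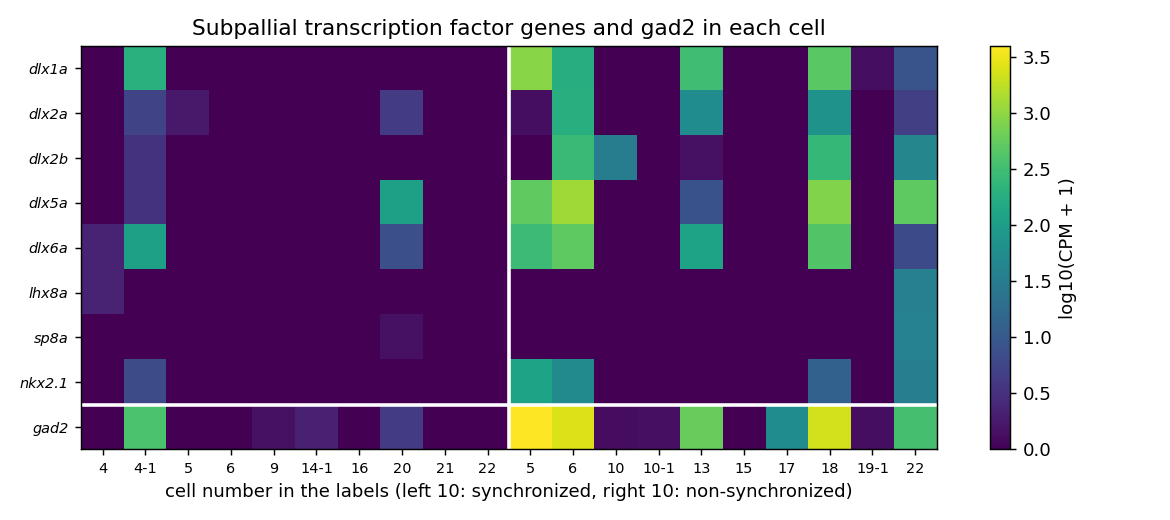
Level of the 8 genes and gad2 in each of the 20 cells as log10(CPM + 1) in colour, with genes in rows and cells in columns, the 10 synchronized cells on the left and the 10 non-synchronized cells on the right of the white line. The bright columns are synchronized 4-1 and non-synchronized 5, 6, 13, 18 and 22, and synchronized 20 stands out in the dlx5a row.

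dlx1a (ENSDARG00000013125) was at 5 or more counts in 6 cells, the same 6 that were richest in gad2. In the synchronized cells it was at 190 CPM in cell 4-1 and at 0 in the other 9. In the non-synchronized cells it ranged from 0 to 900.02 CPM with a median of 4.05 CPM. The upper end was made of 4 cells, with 900.02 CPM in cell 5, 469 CPM in cell 18, 315 CPM in cell 13 and 173 CPM in cell 6. Cell 22 was at 7.72 CPM and cell 19-1 at a single count, and the other 4 were at 0. The groups overlapped, since 9 synchronized and 4 non-synchronized cells shared the value 0 and synchronized cell 4-1 lay above non-synchronized cell 6.

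dlx2a (ENSDARG00000079964), the neighbour of dlx1a in RefSeq's annotation of GRCz12tu, was lower and less even. Among the synchronized cells the highest value was 4.41 CPM in cell 4-1, with 3.25 CPM in cell 20, a single count in cell 5 and a median of 0. The non-synchronized cells ranged from 0 to 187 CPM with a median of 0.172 CPM. Here cell 6 led with 187 CPM, cells 18 and 13 followed at 68.5 and 55.8 CPM, cell 22 was at 3.86 CPM, and cell 5, which had the highest dlx1a level, held a single dlx2a count.

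dlx2b (ENSDARG00000017174), the other zebrafish copy of Dlx2, was counted in a partly different set of cells. Its only synchronized value was 2.41 CPM, or 6 counts, in cell 4-1. In the non-synchronized cells it ranged from 0 to 274 CPM with a median of 0.221 CPM. Cells 6 and 18 were at 274 and 249.8 CPM, cell 22 at 45.8 CPM and cell 10 at 32.4 CPM, cell 13 held a single count, and cell 5 was at 0, where 3 counts would be 1.03 CPM. Cell 10 is the cell in which dlx2b stood without any other member.

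dlx5a (ENSDARG00000042296) and dlx6a (ENSDARG00000042291), neighbours in the same annotation, were at 5 or more counts in the same 7 cells. The highest synchronized value of dlx5a was 109 CPM in cell 20, with 2.41 CPM in cell 4-1 and 0 in the other 8. Non-synchronized cells ranged from 0 to 1193 CPM with a median of 3.54 CPM, and cells 6, 18, 5 and 22 were at 1193, 807, 516 and 498 CPM. Cell 13 was far below these 4, at 7.08 CPM.

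For dlx6a the order of the cells was a different one. Synchronized cell 4-1 was at 111 CPM and cell 20 at 6.503 CPM, cell 4 held a single count, and 7 were at 0. Non-synchronized cells ranged from 0 to 503 CPM with a median of 2.76 CPM, with 503 CPM in cell 6, 416 CPM in cell 18, 288 CPM in cell 5 and 119 CPM in cell 13. Cell 22, among the highest for dlx5a, was at 5.52 CPM of dlx6a.

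nkx2.1 (ENSDARG00000019835), the medial ganglionic eminence factor, was counted only in cells that also held dlx1a. It was at 5.61 CPM in synchronized cell 4-1 and 0 in the other 9. The non-synchronized cells ranged from 0 to 120 CPM with a median of 0, and the values above 0 were 120 CPM in cell 5, 50.5 CPM in cell 6, 33.7 CPM in cell 22 and 11.998 CPM in cell 18. Cell 13 had no nkx2.1 count beside 315 CPM of dlx1a, where 3 counts would be 1.33 CPM.

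lhx8a (ENSDARG00000002330) and sp8a (ENSDARG00000011870) each rested on 1 cell, non-synchronized cell 22. lhx8a was at 35.3 CPM there, or 64 counts, and elsewhere was a single count in synchronized cell 4. sp8a was at 38.6 CPM, or 70 counts, and elsewhere was a single count in synchronized cell 20. The mouse counterparts of these genes mark different eminences, and here they were counted together in 1 library, which also held nkx2.1. The same library held 1737 CPM of microglia and leukocyte genes, whose part in these values was not tested.

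Set by group, every one of the 8 genes had the higher mean in the non-synchronized cells, as did 6930 of all 14404 genes with a mean of at least 1 CPM over the 20 cells. All 8 passed that level, but only dlx1a, dlx5a and dlx6a would have passed it in the synchronized cells alone, so a higher mean was built into the passing of the other 5. All 8 were at least 2-fold higher on the scale of the mean CPM + 1, against 23.3% of all measured genes, and 6 of the 8 (the dlx genes and nkx2.1) were at least 8-fold higher, against 4.59%. The genes dlx1a, dlx2b, dlx5a and nkx2.1 were detected in at least 3 more non-synchronized than synchronized cells, against 4.8% of all measured genes. The members were named with earlier results of these data known, so these shares describe the list only.

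The sum of the 5 dlx genes had a mean of 43.1 ± 101.05 CPM over the synchronized cells against 714 ± 934 CPM over the non-synchronized cells (SD, n = 10 cells each), a ratio of 16.5. In both groups the SD was larger than the mean. The synchronized sums ran from 0 over a median of 0 to 310 CPM in cell 4-1, with 119 CPM in cell 20. The non-synchronized sums ran from 0 over a median of 265 CPM to 2330 CPM, with 2330 CPM in cell 6, 2011 CPM in cell 18, 1704 CPM in cell 5, 561 CPM in cell 22, 497 CPM in cell 13 and 32.4 CPM in cell 10. So the distance between the group means came from 5 non-synchronized cells that each lay above every synchronized cell, while the remaining 5 lay in the range of the synchronized cells. When the counts of each group were added first, the sum was 57.5 CPM (exact Poisson interval at 95%, 54.1 to 61.1) against 737 CPM (726 to 749). Without synchronized cell 4-1 the ratio of the means was 53.1.

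Single genes gave the same direction with unequal ratios. The mean of dlx1a was 19.01 ± 60.1 CPM over the synchronized cells against 187 ± 300.3 CPM over the non-synchronized cells (SD, n = 10 cells each), a ratio of 9.81. Leaving out non-synchronized cell 5 lowered it to 5.64, and without synchronized cell 4-1 the gene was at 0 in the synchronized group, at least 961-fold lower against a floor of 3 counts over the group. All dlx1a counts of the synchronized group were thus in 1 cell, while cell 5 held 48.3% of the summed CPM of the non-synchronized group.

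dlx2a averaged 0.845 ± 1.62 CPM and 31.5 ± 60.4 CPM (SD, n = 10 cells each), a ratio of 37.3 that was 16.9 without non-synchronized cell 6 and 70.3 without synchronized cell 4-1. dlx2b averaged 0.241 ± 0.761 CPM and 60.2 ± 108 CPM (SD, n = 10 cells each), a ratio of 250.4. That ratio was 152 without non-synchronized cell 6, 163 without non-synchronized cell 18 and at least 310-fold without synchronized cell 4-1. Neither Dlx2 copy passed 4.41 CPM in a synchronized cell.

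dlx5a averaged 11.2 ± 34.4 CPM and 302 ± 431 CPM (SD, n = 10 cells each), a ratio of 27.1, and almost all of its synchronized counts came from cell 20, without which the ratio was 1129.7. For dlx6a the means were 11.9 ± 34.9 CPM and 133 ± 196 CPM (SD, n = 10 cells each), a ratio of 11.2 that became 154 without synchronized cell 4-1. Different synchronized cells thus carried the neighbours dlx5a and dlx6a.

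nkx2.1 averaged 0.561 ± 1.78 CPM and 21.6 ± 38.9 CPM (SD, n = 10 cells each), a ratio of 38.5. It was 19.02 without non-synchronized cell 5 and at least 111-fold without synchronized cell 4-1. For lhx8a the means were 0.126 ± 0.397 and 3.53 ± 11.2 CPM, and for sp8a 0.0465 ± 0.147 and 3.86 ± 12.2 CPM (SD, n = 10 cells each), with 1 synchronized count for each gene and all non-synchronized counts in cell 22. No ratio is given for these last genes, and without cell 22 the direction turned, with only the single synchronized count left.

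**Figure D2:**
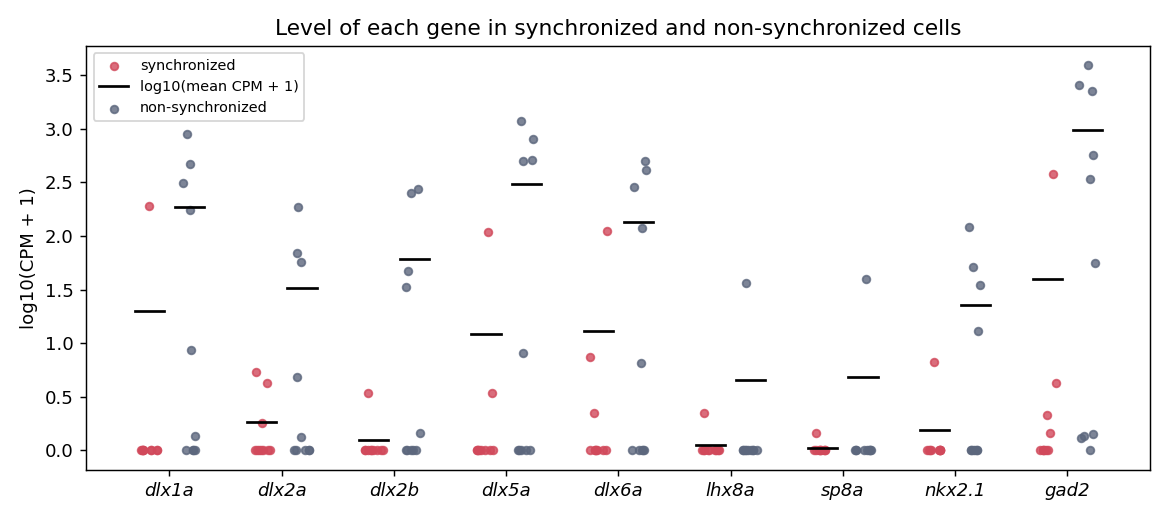
Level of each gene as log10(CPM + 1), with 1 point per cell, synchronized cells in red and non-synchronized cells in blue-grey, and a black line at the log10 of the group's mean CPM + 1. For each member both groups have cells at 0, and the means of dlx5a, 11.2 and 302 CPM, lie far from most of the points they stand for.

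At least 1 count was found in 1 synchronized and 6 non-synchronized cells for dlx1a, 3 and 5 for dlx2a, 1 and 5 for dlx2b, 2 and 5 for dlx5a, 3 and 5 for dlx6a, and 1 and 4 for nkx2.1. Thinned to 795838 counts per library, the expected numbers of cells were 1.00 and 5.30 for dlx1a, 2.57 and 4.26 for dlx2a, 0.900 and 4.35 for dlx2b, 1.90 and 5.00 for dlx5a, 2.998 and 4.997 for dlx6a, and 0.995 and 4.00 for nkx2.1. Depth therefore changed these numbers by less than 1 cell. With 10 cells a group, the share of cells is loosely known. No interval is given for it, because cells of unnamed fish cannot be taken as independent draws.

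Without the 6 libraries rich in microglia or red blood cell genes, 8 synchronized and 6 non-synchronized cells were left, and 5 of the 6 cells richest in gad2 were among those removed. The mean dlx sum was then 15.02 CPM for synchronized cells against 341 CPM for non-synchronized cells, and the non-synchronized value rested on cell 18, apart from dlx2b in cell 10 and a single dlx1a count in cell 19-1. Cell 18 itself held 2.12 CPM of the microglia list and 414 CPM of the red blood cell list, beside 2011 CPM of the dlx genes. nkx2.1 then averaged 2.0 CPM in place of 21.6 CPM in the non-synchronized group and was left in 1 cell, with none in the synchronized group. At least 1 count was left in 1 synchronized and 1 non-synchronized cell for dlx2a and for dlx5a, and in 2 synchronized and 1 non-synchronized cells for dlx6a. With these libraries left out, lhx8a averaged 0.157 and 0 CPM and sp8a 0.0581 and 0 CPM.

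The members were counted mostly where gad2 was. gad2 (ENSDARG00000015537) codes for a glutamate decarboxylase, an enzyme of GABA synthesis, and its means were 38.7 ± 121 CPM for synchronized against 970.4 ± 1417 CPM for non-synchronized cells (SD, n = 10 cells each), a ratio of 25.1 that was 16.6 without non-synchronized cell 5 and 1807 without synchronized cell 4-1. Its values fell apart into 6 cells at 343 CPM or more, which were synchronized 4-1 at 382 CPM and non-synchronized 5, 6, 18, 13 and 22 at 3931, 2560, 2246, 567 and 343 CPM, and 14 cells at 55.3 CPM or less. The limit of 100 CPM between them was set after the values were seen, and cells are not compared across it by a test.

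All 6 cells with high gad2 held dlx1a, dlx2a, dlx5a and dlx6a with at least 1 count. Their dlx sums ran from 310 to 2330 CPM, whereas the highest sum in the other 14 cells was 119 CPM, in synchronized cell 20. dlx1a was the clearest of the genes, with 7.72 to 900.02 CPM in the 6 cells and at most 0.376 CPM elsewhere. nkx2.1 was in 5 of the 6 and in none of the 14, and dlx2b was in 5 of the 6, with 32.4 CPM in non-synchronized cell 10 outside them. For dlx5a and dlx6a the highest values outside were those of synchronized cell 20, at 109 and 6.503 CPM, which lay above the lowest values inside, 2.41 and 5.52 CPM.

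At 5 or more counts, gad2 and at least 1 member were found together in 7 of the 20 cells, and neither was found in 11. Of the 8 cells with gad2, 7 held a member, and of the 12 cells without gad2, 1 did. These numbers describe the cells only, since the fish behind each cell is not named. The cell with gad2 and no member was non-synchronized cell 17, with 70 gad2 counts, where 3 counts of a member would be 2.37 CPM. The cell with a member and no gad2 was non-synchronized cell 10, with 102 counts of dlx2b and a single gad2 count. Synchronized cell 20 stood between the sets, with 235 dlx5a counts beside 7 gad2 counts.

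Over the 20 cells, Pearson's r between log2(CPM + 10) of a gene and of gad2 was 0.93 for dlx1a, 0.94 for dlx6a, 0.82 for nkx2.1, 0.81 for dlx5a, 0.71 for dlx2a and 0.61 for dlx2b, and it was 0.20 for lhx8a and 0.21 for sp8a. These values describe 20 cells that lie in separate sets and come from libraries of unequal depth. Without the 2 cells farthest from the gad2 median, non-synchronized 5 and 6, r was 0.90 for dlx1a, 0.89 for dlx6a and 0.68 for dlx5a. Inside the 6 cells with high gad2, the rank correlation with gad2 was 0.66 for the dlx sum, 0.83 for dlx6a and -0.09 for dlx2b. Per 100 CPM of gad2 the dlx sum was 81.2 CPM in synchronized cell 4-1 and 91.0, 87.6 and 89.5 CPM in non-synchronized cells 6, 13 and 18. It was 43.3 CPM in cell 5 and 164 CPM in cell 22. The 4 middle cells were thus close to one another although their gad2 levels ran from 382 to 2560 CPM.

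**Figure D3:**
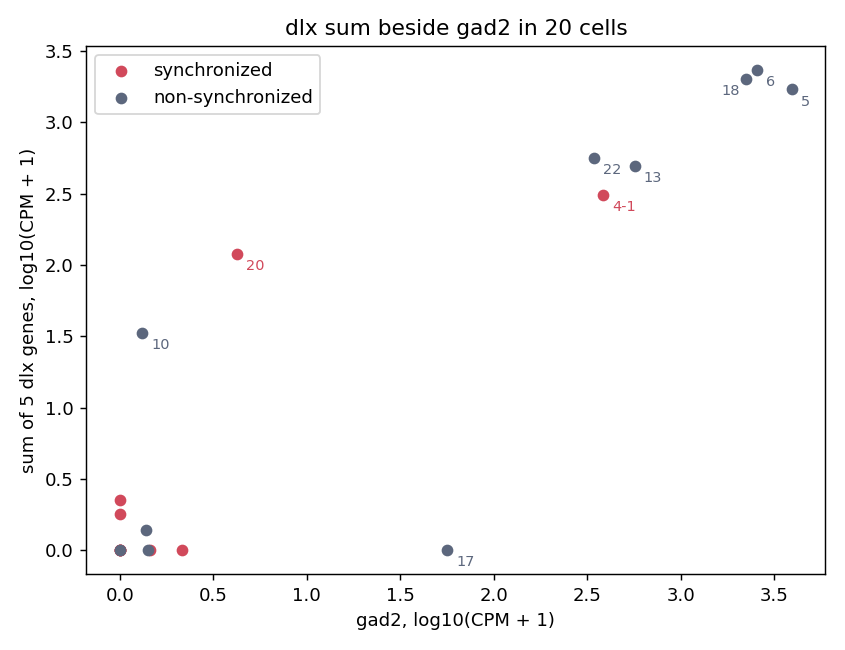
Summed level of the 5 dlx genes against gad2, both as log10(CPM + 1), with 1 point per cell, synchronized cells in red and non-synchronized cells in blue-grey, and cell numbers beside the points discussed. The 6 cells with gad2 at 343 CPM or more lie at the upper right with dlx sums from 310 to 2330 CPM, while synchronized 20 and non-synchronized 10 hold dlx counts with little gad2 and non-synchronized 17 the reverse.

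The members also went together in pairs, though not in fixed proportions. At 5 or more counts, dlx5a and dlx6a were found together in all 7 cells that held either. dlx1a was found with dlx6a in 6 cells, and in each of the 6 cells that held dlx1a dlx5a was there too. dlx2a and dlx2b shared 4 of the 7 cells that held at least 1 of them, with dlx2a alone in synchronized cell 20 and non-synchronized cell 13 and dlx2b alone in non-synchronized cell 10.

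The share that dlx5a made of the dlx5a and dlx6a counts differed between cells far beyond counting error, read across cells only, since the genes differ in length. Among non-synchronized cells it was 64.2% for cell 5 (exact Clopper-Pearson interval at 95%, 62.2% to 66.1%), 70.3% for cell 6 and 66.0% for cell 18 (63.7% to 68.2%). In cell 22 it was 98.9% (98.0% to 99.5%) and in synchronized cell 20 it was 94.4% (90.7% to 96.9%), whereas in synchronized cell 4-1 it was 2.12% (0.782% to 4.56%) and in non-synchronized cell 13 it was 5.61% (3.24% to 8.96%). The 7 cells thus lay at a middle share, near all dlx5a or near all dlx6a. Counting error is not the spread between repeat libraries of 1 cell, which was not measured.

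For dlx1a and dlx2a the share of dlx1a ran from 48.1% in non-synchronized cell 6 (44.7% to 51.4%) over 84.9% in cell 13 and 87.3% in cell 18 to 97.7% in synchronized cell 4-1 and 99.96% in non-synchronized cell 5, where 1 of 2622 counts was dlx2a. The 7 dlx2a counts of synchronized cell 20 stood beside no dlx1a count. Of the dlx2a and dlx2b counts, dlx2a made 99.2% in non-synchronized cell 13, 64.7% of only 17 counts in synchronized cell 4-1, 40.6% in non-synchronized 6, 21.5% in non-synchronized 18 and 7.78% in non-synchronized 22. In RefSeq's annotation, long non-coding RNA genes overlap dlx1a and dlx2b, trioa overlaps dlx5a and dlx6a, and a protein-coding gene overlaps lhx8a. Whether strand was used in counting is not given in the sources used here, so reads of overlapping genes may not have been told apart.

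**Figure D4:**
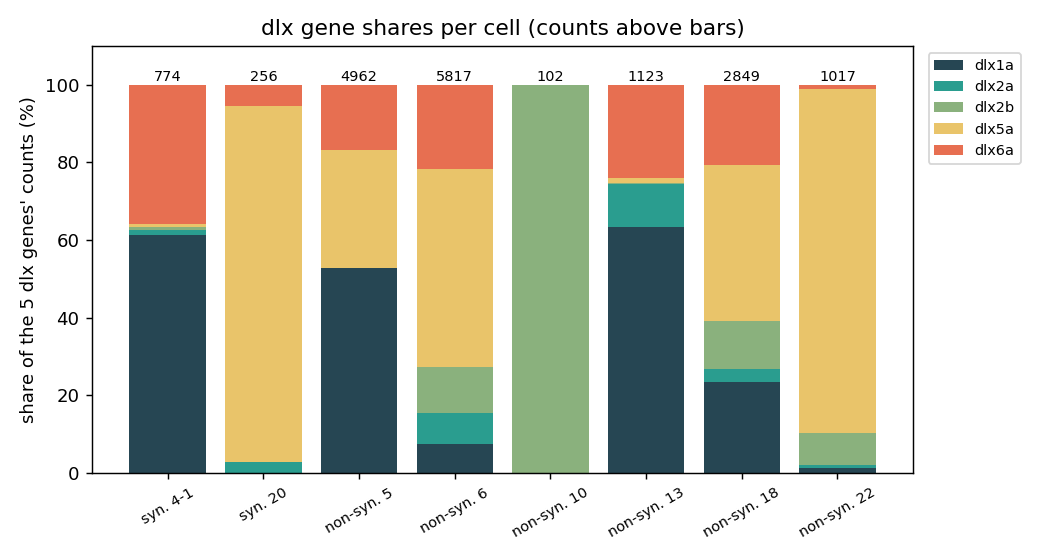
Share of each of the 5 dlx genes in their summed counts, in percent, for the 8 cells with at least 3 such counts, which are given above the bars. dlx1a with dlx6a makes up most of synchronized 4-1 and non-synchronized 13, dlx5a most of synchronized 20 and non-synchronized 22, and dlx2b all 102 counts of non-synchronized 10.

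The genes whose level went most like the dlx sum over the 20 cells included 4 genes of GABA synthesis, loading and uptake. By Pearson's r of log2(CPM + 10) among the 9028 genes that averaged 10 CPM or more and had counts in 5 or more cells, the first 12 were slc32a1 (r = 0.95), which codes for the vesicular GABA transporter, gad2 (0.94), sp9 (0.92), sox2 (0.92), the GABA uptake gene slc6a1b (0.90), znf385c (0.89), sox6 (0.88), gad1b (0.87) and satb1b (0.82), with dlx6a, dlx1a and dlx5a, which are parts of the sum. sox2, which also stands on the radial glia list, was at 55.7 CPM in synchronized cell 20, above its lowest level in the 6 cells with high gad2, 55.3 CPM. sp9 codes for a zinc finger factor of the subpallium and was at 34.5 to 330 CPM in the 6 cells with high gad2 and at most 1.39 CPM in the other 14. slc32a1 was at 121 CPM or more in the 6 and at most 5.57 CPM in the others.

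sp9 was also first for nkx2.1 (r = 0.90), followed by mier1a and cacng3b (0.89 each). For lhx8a and sp8a the first 3 were the same genes, tdp1, si:ch73-138n13.1 and si:dkey-93n13.2, with r from 0.89 to 0.91. All of them rest on non-synchronized cell 22, where tdp1 was at 172 CPM and si:ch73-138n13.1 at 337 CPM. These likenesses therefore describe 1 library.

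Among the other listed transcription factor genes of the subpallium and of interneurons, 42 names were found in the table, and 35 rows were measured. Of these, 27 had the higher mean in non-synchronized and 8 in synchronized cells, 25 and 6 of them by at least 2-fold, against 3363 and 3849 of all 14404 measured genes at 2-fold. Many of the 27, six3b, arxa and sall3a among them, averaged below 1 CPM in the synchronized cells. Of the 8, pax6b and gsx2 averaged 0 CPM in the non-synchronized cells. For such genes the direction was built into being measured. The median log2 ratio of the list was 2.397, against -0.06 over all measured genes. The most abundant among those at least 2-fold different were etv1, tshz1, ebf3a and sox6. None of the other dlx genes listed, dlx1b, dlx3b, dlx4a and dlx4b, was found by name in the count table.

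etv1, an ETS factor gene, averaged 27.5 ± 57.95 and 460.5 ± 963 CPM, and sox6, a factor of interneurons from the medial eminence in mice, averaged 29.3 ± 70.7 and 105 ± 186 CPM in synchronized and non-synchronized cells (SD, n = 10 cells each). Both were highest in the non-synchronized cells 5 and 6, and both were also counted in synchronized cells 4-1 and 20. tshz1 averaged 16.8 ± 51.9 and 180 ± 198 CPM, and ebf3a averaged 9.43 ± 29.8 and 156 ± 381 CPM (SD, n = 10 cells each). Neither kept to the cells with dlx genes. In non-synchronized cell 17, which held no member, ebf3a was at 1195 CPM and tshz1 at 457 CPM. Non-synchronized cell 15, also without a member, held ebf3a at 353 CPM and tshz1 at 304 CPM. The level of tshz1 was 410 CPM in non-synchronized cell 10, where dlx2b was the only member.

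The 7 measured genes of GABA synthesis, loading and uptake all had the higher mean in non-synchronized cells, as did 6930 of all 14404 measured genes. By at least 2-fold it was 5 of the 7, against 23.3% of all measured genes, and the median log2 ratio of the list was 2.51. slc32a1 averaged 29.9 ± 92.4 and 176 ± 255 CPM, gad1b, the other glutamate decarboxylase gene, 2.47 ± 2.89 and 38.1 ± 46.1 CPM, and slc6a1b 78.4 ± 154 and 806 ± 1286 CPM (SD, n = 10 cells each). In synchronized cell 4-1 gad1b was at 7.62 CPM beside 382 CPM of gad2. In non-synchronized cell 22 gad1b was at 109.8 CPM beside 343 CPM of gad2. Cells alike in gad2 thus differed in gad1b.

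Of the 18 measured pallial glutamatergic genes, 12 had the higher mean in synchronized cells and 6 in non-synchronized cells, against 7474 and 6930 of all 14404 measured genes. By at least 2-fold it was 3 and 4 of the 18, against 3849 and 3363 of all measured genes. The median log2 ratio of the list was -0.43, against -0.06 over all measured genes. The vesicular glutamate transporter gene slc17a6b averaged 142 ± 105 and 38.7 ± 39.2 CPM, slc17a7a 61.8 ± 79.1 and 19.3 ± 43.8 CPM, and the neurogenic factor gene neurod6a 234 ± 184 and 99.1 ± 94.8 CPM (SD, n = 10 cells each). bcl11aa went the other way, with 3.16 ± 7.64 and 131 ± 162 CPM. lhx9 and bcl11ab, also higher in non-synchronized cells, averaged below 1 CPM in the synchronized cells, so their direction was built into being measured. Among the cells with dlx genes, the glutamate transporters slc17a6a, slc17a6b, slc17a7a and slc17a7b summed to 0 CPM in cell 18, to 13.6 CPM in cell 6 and to 60.1 CPM in cell 22 of the non-synchronized group, but to 330 CPM in cell 5, 325 CPM in cell 13, 233 CPM in synchronized cell 4-1 and 547 CPM in synchronized cell 20. Of these 7 cells, cell 18 was thus the one with no glutamate transporter count, and 3 counts would be 2.12 CPM there. The whole pallial list summed to 394 CPM in cell 18 and 946 CPM in cell 22. It summed to 3791 CPM in cell 6, 4126 CPM in cell 13 and 2014 CPM in cell 5, with a non-synchronized median of 3713 CPM. In synchronized cells 4-1 and 20 it was at 2409 and 6407 CPM.

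Of the 28 measured interneuron subtype genes, 23 had the higher mean in non-synchronized cells, and the median log2 ratio was 2.80. At least 2-fold higher were 19 of them, against 23.3% of all measured genes. Many of the 23, sst1.1, cort, npy and penka among them, averaged below 1 CPM in the synchronized cells. For these a higher non-synchronized mean was built into being measured. sst1.1 (somatostatin) was at 6239 CPM in cell 18, 5329 CPM in cell 22 and 401 CPM in cell 13, all non-synchronized, and at most 0.801 CPM in the other cells that held dlx genes. The related peptide gene cort was at 6656, 1239 and 517 CPM in the same cells, and penkb, a proenkephalin gene, at 937, 1010.2 and 3218 CPM. The cells with dlx genes therefore split into 3 with these peptides and 3 of high gad2 with at most 0.801 CPM of any of them, namely synchronized 4-1 and non-synchronized 5 and 6. The latter 3 were all libraries with over 1000 CPM of red blood cell genes. Of the 3 with the peptides, cells 13 and 22 had over 1000 CPM of microglia and leukocyte genes, and cell 18 passed neither limit. The part of this RNA in the split was not tested. pvalb7, a parvalbumin gene, was highest in non-synchronized cells 17 and 10, at 2398 and 449 CPM.

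Genes chosen after their values were seen show how the dlx cells differed further. Non-synchronized cells 5 and 6 held the neurexin ligand gene nxph1 at 1125 and 739 CPM together with etv1 at 1410.3 and 2905 CPM. Non-synchronized cell 18 held lhx6, a factor of medial eminence interneurons in mice, at 326 CPM, against 20.96 CPM in cell 22 and 9.29 CPM in cell 13, and it held npy at 2179 CPM. Non-synchronized cell 22 held lhx8b, the second Lhx8 copy, at 30.3 CPM and pbx3b at 599 CPM. Cell 13 was the only cell with six3b, at 244 CPM. Synchronized cell 4-1 was the only cell with gsx2, a homeobox factor gene of ganglionic eminence progenitors in mice, at 64.2 CPM, and it held the tachykinin gene tac1 at 2297 CPM.

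**Figure D5:**
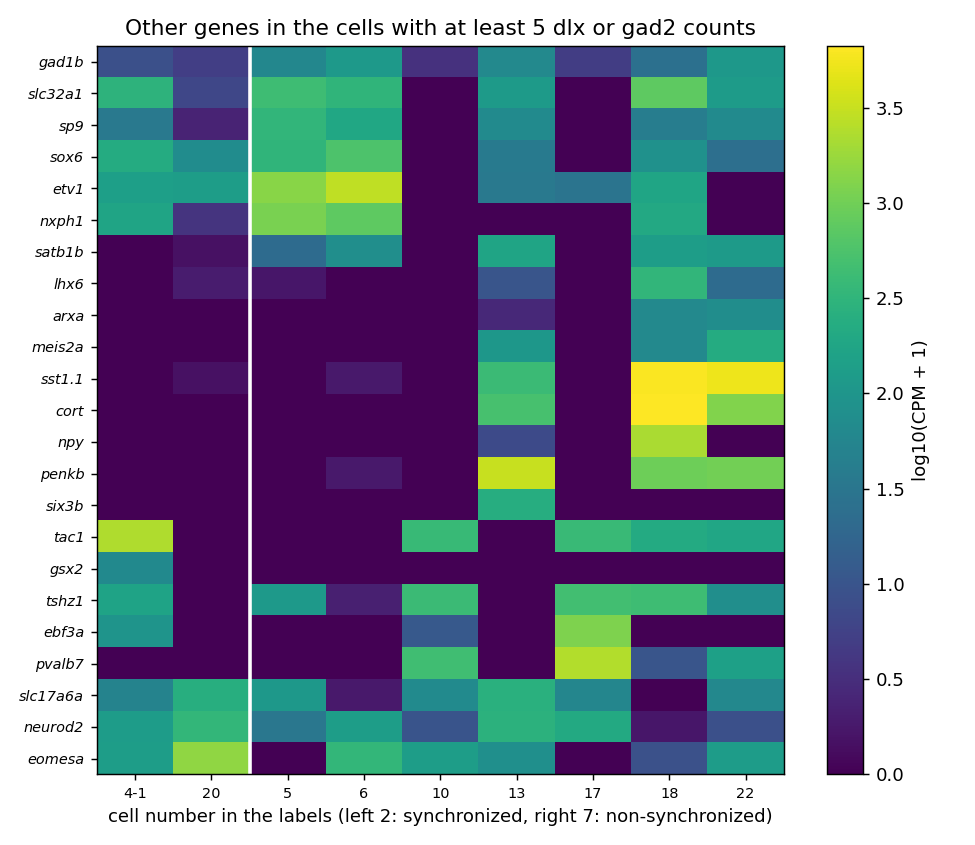
Level of 23 other genes as log10(CPM + 1) in colour in the 9 cells with at least 5 counts of a dlx gene or of gad2, with synchronized 4-1 and 20 left of the white line. slc32a1 and sp9 are bright in synchronized 4-1 and non-synchronized 5, 6, 13, 18 and 22, whereas sst1.1 and cort are bright in non-synchronized 13, 18 and 22 only. For meis2a and ebf3a, which have more than 1 row of counts, the row with the higher mean is drawn.

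Lists of other cell types were read by group means, which a few libraries can carry. A gene that averaged below 1 CPM in 1 group was measured through the other, which fixed its direction. Of all 14404 measured genes, 6930 had the higher mean in non-synchronized cells and 7474 in synchronized cells, 3363 and 3849 of them by at least 2-fold. All 13 measured microglia and leukocyte genes had the higher mean in non-synchronized cells, 12 of them by at least 2-fold, and in the cells with dlx genes apoeb was at 1261 CPM in non-synchronized cell 13 and 977 CPM in cell 22. Of the 7 measured red blood cell rows, where hbba1 has more than 1, 6 had the higher mean in non-synchronized cells. Of the 7 measured oligodendrocyte genes 6 had it in synchronized cells. Of the 9 measured radial glia genes 5, of the endothelial genes both and of the proliferation genes all 3 had the higher mean in non-synchronized cells. Of the 11 measured pan-neuronal genes, 5 had the higher mean in non-synchronized and 6 in synchronized cells, with a median log2 ratio of -0.10, and the 3 that differed by at least 2-fold, gap43, elavl4 and rbfox3a, were all higher in non-synchronized cells. In synchronized cell 4-1 and non-synchronized cells 5 and 6 the microglia list summed to 0, 0 and 0.401 CPM and the red blood cell list to 1630, 6713 and 14956 CPM, and in non-synchronized cells 13 and 22 the microglia list summed to 3172 and 1737 CPM. The oligodendrocyte list was highest in synchronized cell 4-1, at 766 CPM, followed by synchronized cell 5 at 744 CPM. In cell 4-1 olig1 was at 410 CPM, olig2 at 148 CPM and sox10 at 89.0 CPM, each the highest of any cell. There mag was at 103 CPM, mbpb at 0.401 CPM and plp1b at 0 CPM. The part of any of these lists in the dlx levels was not tested.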

How the data were processed

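Single Dc neurons of zebrafish were collected by glass pipette after two-photon imaging, and 10 libraries per group were sequenced with 75 bp paired-end reads, per the labels with a TruSeq stranded mRNA kit, whereas a figure of the study names Smart-seq2, which keeps no strand. The values the authors deposited are unnormalized counts, 1 per gene and library. The build danRer11 and edgeR 3.14.0 stand in the submitters' processing notes. Aligner and counter were not given in the sources used here. Reads were counted without molecular identifiers, so intervals and floors cover counting error only.

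CPM was the count divided by the library's total, and group values are means over cells. A gene was measured with a mean of at least 1 CPM, and log2 ratios compare group means after adding 1 CPM. Groups came from the sample titles. Libraries that share a number in a group (synchronized 4 and 4-1, non-synchronized 10 and 10-1) were kept as separate cells. The members and gene lists were chosen with earlier results of these data known. Named genes were the members, gad2, up to 4 genes per list with the highest mean among those at least 2-fold different, and those most like the dlx sum (12 genes), lhx8a, sp8a or nkx2.1 (3 genes each). Not all are given values. Neighbouring and overlapping genes were taken from RefSeq's table for GRCz12tu, whose coordinates were used for gene order and overlap only.

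Alternatives were TMM and poscounts scaling, totals over genes with at least 10 counts, summed counts, medians, a pseudocount of 10 CPM, averaging libraries that share a number, each cell left out, 5 counts for detection, thinning, and leaving out 6 libraries rich in other cell types' genes. The procedures were tested on simulated data. Scaling factors came from edgeR 4.0.16 and DESeq2 1.42.0 in R 4.3.3, and all else from Python 3.11.15 with matplotlib 3.10.9, scipy 1.17.1, pandas 2.3.3 and numpy 2.4.6.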

Additional observations from a re-analysis of the deposited data

Results flagged for a closer look

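In each group of 10 cells, the highest or lowest cell was looked at for a gap to its neighbour that, as a share of the group's range, passed Dixon's critical value for 10 values. This was so in 14 of 20 groups looked at, where chance gives about 1 in 20 for normally distributed values. These groups hold many zeros, and a group with 1 cell above 0 always meets the limit, so that rate does not apply to them. Among the synchronized cells, cell 4-1 stood apart for dlx1a (190 CPM), dlx2b (2.41 CPM), dlx6a (111 CPM), nkx2.1 (5.61 CPM), gad2 (382 CPM) and the dlx sum (310 CPM, with 119 CPM in the next cell). Synchronized cell 20 stood apart for dlx5a (109 CPM) and, by a single count, for sp8a (0.465 CPM), and synchronized cell 4 by a single count for lhx8a (1.26 CPM). On the non-synchronized side, cell 5 stood apart for dlx1a (900.02 CPM, with 469 CPM in the next cell) and nkx2.1 (120 CPM, with 50.5 CPM in the next), cell 6 for dlx2a (187 CPM, with 68.5 CPM in the next), and cell 22 for lhx8a (35.3 CPM) and sp8a (38.6 CPM).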

How the results depend on the processing

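All 8 members kept the higher mean in non-synchronized cells with other scaling, totals, summed counts, a larger pseudocount and averaged libraries, while with medians over cells the number higher fell to 5 and the number at least 2-fold higher to 3. The log2 ratio of lhx8a ran from -0.17 to 2.18 with 1 cell left out and was -0.21 without the 6 libraries rich in other cell types' genes, and that of sp8a ran from -0.066 to 2.34 and was -0.081. The log2 ratio of the dlx sum was 4.02 and lay between 3.60 and 8.05 over all alternatives. Of the alternative log2 ratios of single genes, numbers of cells with a gene and the count of genes most like the dlx sum, 246 stayed within the spread between cells or, for counts, within 1.5 times the main value, 23 moved beyond that and 4, the values of lhx8a and sp8a below 0 given above, reversed. For every member the SD was larger than the mean in both groups, so this limit was wide. The log2 ratio of dlx5a, 4.64, became 7.90 without synchronized cell 20 and still counted as within it. That of dlx6a went from 3.38 to 6.17 without synchronized cell 4-1 and also did. The number 246 therefore does not show that the ratios were stable. Over all measured genes the median log2 ratio was -0.06 by library totals, 0.05 by TMM and 0.15 by poscounts size factors. A single count is 0.318 to 1.26 CPM at these depths, so values of 1 or 2 counts set no order. No paired analysis was possible because the results come from no test, and the numbers 5, 6 and 22 that both groups carry name different cells.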
